A study of Homo sapiens with 4 samples.

Results

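The genes described here are 9 transcriptional targets of the tumour suppressor p53, namely MDM2, GDF15, BBC3, BAX, FAS, SESN1, BTG2, GADD45A and TP53I3. They were chosen by name from the 39323 genes in the deposited tables, and not by a rule on their values. Earlier results of these data were known when they were chosen, and CDKN1A was read beside them. The question was whether p53 targets other than CDKN1A, the gene for p21Cip1, differed in their transcript levels when SKP2 was depleted. 8 of the 9 had a mean of at least 1 TPM (an abundance scaled for gene length and for the total of the library) and FAS did not. The data were 4 poly-A RNA-seq libraries of RD and JR1, which are established cell lines of fusion-negative rhabdomyosarcoma, a tumour of skeletal muscle lineage. In each line 1 library came from cells infected with a lentivirus that carried a scrambled hairpin (shSCR, labelled WT) and 1 from cells infected with a lentivirus against SKP2 (shSKP2, labelled SKP2 knockdown), so that all 4 carried a viral vector and uninfected cells were not among them. No group had a replicate, so that no difference between the hairpins of a line could be set against a spread, and p-values are not given. An intact p53 response cannot be assumed in either line, and the activity of p53 was not measured by these data, which limits what the levels of its targets say about it.

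p53 is a transcription factor that binds as a tetramer to a response element made of a repeated motif. In unstressed cells its protein is kept low by MDM2, a ubiquitin ligase that is itself a p53 target and so closes a feedback loop. After DNA damage or oncogenic stress p53 raises genes that halt the cell cycle (CDKN1A, BTG2, GADD45A), genes that start apoptosis (BBC3, BAX, FAS, TP53I3), the stress regulator SESN1 and the secreted factor GDF15. SKP2 is the substrate receptor of a ubiquitin ligase that marks p21Cip1 and p27Kip1 for degradation. Several of the targets are also driven by other factors such as ATF4, FOXO and the immediate early factors.

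A response element is the feature that p53 binds at its target genes. The windows below are the best matches to its consensus, and whether p53 acts on these genes through them was not examined. For each gene the best match to the p53 consensus, 2 adjoining motifs of 10 bases each with no spacer, was read within 2500 bases of its RefSeq start (GRCh38.p14). The consensus is a palindrome, so that a scan of 1 strand covers both. 7 of the 9 genes held a window that matched at 18 of 20 bases, printed 5′ to 3′ on the strand of the gene. The capitals mark the positions of the 4 core bases of each motif, whether or not they match the consensus. In MDM2, BBC3, BAX and TP53I3 a mismatch lies within these positions.
MDM2 (chr12:68808923-68808942, plus strand, intron): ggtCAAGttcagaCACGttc
GDF15 (chr19:18385308-18385327, plus strand, upstream of the canonical transcript): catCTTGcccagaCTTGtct
BBC3 (chr19:47232568-47232587, minus strand, upstream of the canonical transcript): gggTCTGcccaggCATGtcc
BAX (chr19:48955213-48955232, plus strand, intron): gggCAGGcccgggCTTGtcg
FAS (chr10:88991309-88991328, plus strand, intron): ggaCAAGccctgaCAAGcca
BTG2 (chr1:203303642-203303661, plus strand, upstream of the canonical transcript): acgCATGttcaggCATGcat
TP53I3 (chr2:24086781-24086800, minus strand, upstream of the canonical transcript): ataCATCctcagaCATGttt

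A match of 18 or more bases was found near 11.8% of the 15240 protein-coding genes scanned, so that most of the genes scanned held no window that matched as well. The best window of SESN1 matched at 16 of 20 bases, which 99.8% of all genes reached, and GADD45A was not among the genes scanned. The labels of position refer to the canonical transcript of the GENCODE annotation, whose start can differ from the RefSeq start. The window of BBC3 lay 89 bases downstream of its RefSeq start. All these matches describe the reference sequence and are not measurements of p53 binding.

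The knockdown was read in SKP2 itself, whose level was 92.8 TPM in RD shSCR, 7.40 TPM in RD shSKP2, 46.5 TPM in JR1 shSCR and 2.72 TPM in JR1 shSKP2. Muscle identity was read in 7 markers. MYOD1 was at 87.0 and 93.8 TPM in RD shSCR and shSKP2 and at 101 and 131 TPM in JR1 shSCR and shSKP2, 5 further markers had a mean of at least 1 TPM, and MYF5 was listed at 0 in all 4 libraries. Short structural RNAs took 50.1% and 62.2% of all TPM in the shSCR and shSKP2 libraries of RD, and 57.1% and 64.9% in those of JR1, so that less of the total was left for other genes in both shSKP2 libraries. In the following, a change compares the hairpins within a line, as the log2 of TPM + 1 with shSKP2 minus the log2 of TPM + 1 with shSCR, which understates differences of genes at low TPM. All 12985 genes whose TPM averaged at least 1 (the tested genes) had a median change of -0.27 (RD) and -0.21 (JR1), and changes are therefore also given after removal of the short structural RNAs and rescaling of the rest, which brought the median of all genes to 0.10 and 0.03.

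CDKN1A was at 90.3 TPM in RD shSCR, 201 TPM in RD shSKP2, 111 TPM in JR1 shSCR and 191 TPM in JR1 shSKP2. Its changes of 1.15 in RD and 0.78 in JR1 placed it above 99.2% and 96.9% of all tested genes, and this is the pattern against which the other targets were read.

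**Figure D1:**
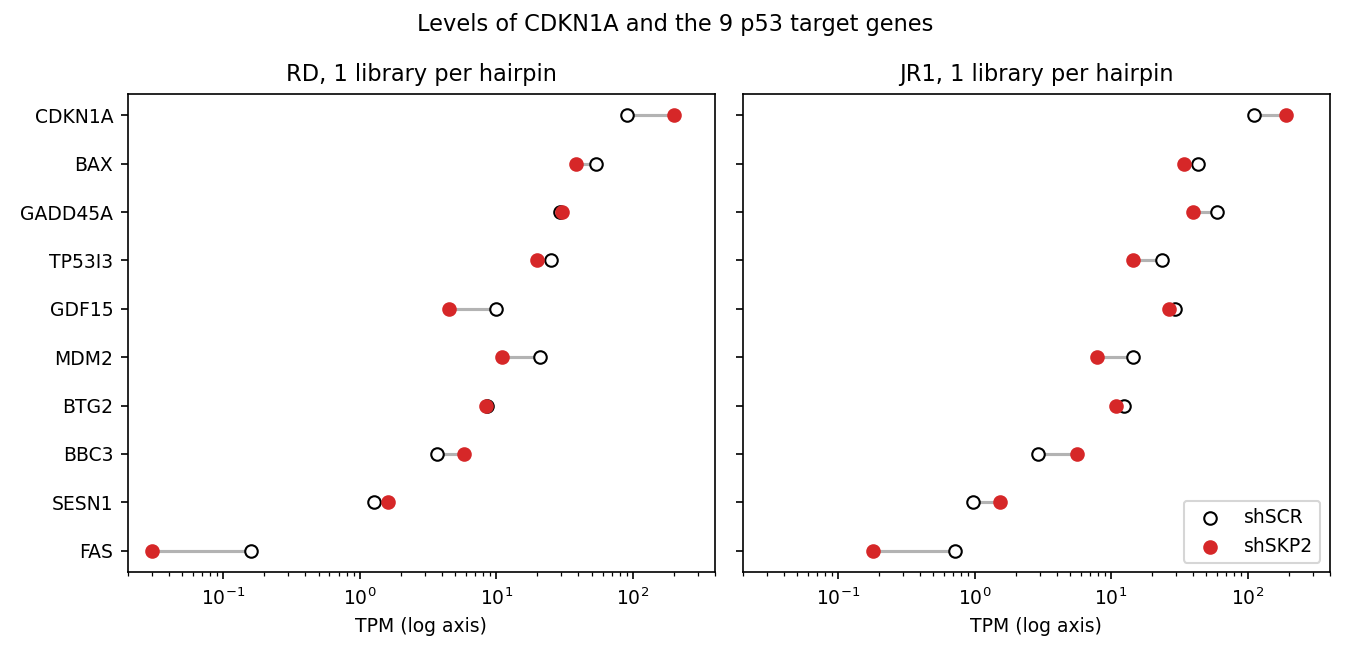
TPM on a log axis of CDKN1A and the 9 p53 targets in RD (left) and JR1 (right), with 1 point per library, open circles for shSCR and filled circles for shSKP2. CDKN1A, BBC3 and SESN1 lie further right with shSKP2 in both lines, whereas MDM2, BAX, TP53I3, FAS, GDF15 and BTG2 lie further left in both, BTG2 in RD by very little.

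MDM2 (chr12:68808149-68850686), the negative regulator of p53 whose intronic window is printed above, did not follow CDKN1A. Its level was 20.8 TPM in RD shSCR, 11.04 TPM in RD shSKP2, 14.4 TPM in JR1 shSCR and 7.84 TPM in JR1 shSKP2. Both shSKP2 libraries were below both shSCR libraries. MDM2 changed by -0.86 (RD) and -0.80 (JR1), and 11.2% and 14.5% of all tested genes had a lower change. The TPM itself, without the added 1, differed by -46.9% and -45.6%. The difference was still there after removal of the short structural RNAs, at -0.50 (RD) and -0.57 (JR1), and the sign was negative in both lines under all 5 alternative scalings and pseudocounts. CPM, which overlaps exons of MDM2 on the opposite strand, did not exceed 1.42 TPM in any library, and the strand setting of the quantification is not given in the sources used here.

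Because MDM2 and CDKN1A come from the same libraries, their ratio does not depend on the scaling of the total. The ratio of CDKN1A to MDM2 was 4.34 in RD shSCR and 18.2 in RD shSKP2, a 4.19-fold difference, and 7.69 and 24.4 in JR1, a 3.17-fold difference. MDM2 and CDKN1A thus moved apart in both lines.

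Among the apoptotic members, BBC3 and BAX differed in direction. BBC3 (chr19:47220822-47232998) encodes PUMA, a BH3-only protein that neutralises the survival members of the BCL2 family. It was at 3.68 TPM in RD shSCR, 5.76 TPM in RD shSKP2, 2.93 TPM in JR1 shSCR and 5.68 TPM in JR1 shSKP2. Both shSKP2 libraries were above both shSCR libraries, and the lines had nearly the same level with shSKP2. BBC3 changed by 0.53 (RD) and 0.77 (JR1), and 96.2% and 96.8% of tested genes had a lower change. It was 0.96 and 1.13 after removal of the short structural RNAs, so that BBC3 stood highest among the members in each line and under each of these scalings, and its sign was positive under all 5 alternatives in both lines.

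BAX (chr19:48954825-48961798), which forms pores in the outer mitochondrial membrane, was at 54.1 TPM in RD shSCR, 38.1 TPM in RD shSKP2, 43.1 TPM in JR1 shSCR and 34.3 TPM in JR1 shSKP2. It was the most abundant of the 9 in RD, and its shSKP2 levels were below both shSCR levels. The changes of -0.49 and -0.32 became -0.10 and -0.04 after removal of the short structural RNAs. The ratio of BBC3 to BAX, which is free of the scaling, was 0.0680 in both shSCR libraries, 0.151 in RD shSKP2 and 0.166 in JR1 shSKP2. PUMA transcript thus made up a larger part relative to BAX in both shSKP2 libraries, by 2.22-fold in RD and 2.44-fold in JR1.

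TP53I3 (chr2:24077428-24085767), an oxidoreductase also called PIG3, was at 25.2 TPM in RD shSCR, 19.8 TPM in RD shSKP2, 23.6 TPM in JR1 shSCR and 14.4 TPM in JR1 shSKP2. The lines had similar levels with shSCR, and the larger difference between the hairpins was in JR1. TP53I3 changed by -0.34 (RD) and -0.68 (JR1). After removal of the short structural RNAs it was 0.05 in RD and -0.42 in JR1, so that the sign in RD depended on the scaling and held in 3 of 5 alternatives, while that in JR1 held in 5 of 5.

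FAS (chr10:88968429-89017059), the death receptor for FAS ligand, was near the lower limit of the tables. It was at 0.16 TPM in RD shSCR, 0.03 TPM in RD shSKP2, 0.72 TPM in JR1 shSCR and 0.18 TPM in JR1 shSKP2. Its mean of 0.27 TPM kept it out of the tested genes, and with the depth of the libraries unknown the precision of such low values cannot be given. STAMBPL1, which shares exon positions with FAS on the same strand, was at 4.19 to 13.7 TPM. The ligand gene FASLG did not exceed 0.03 TPM in any library. Of 9 genes of the FAS pathway 7 were tested, and none changed by 1 or more on the log2 scale in either line. Of all tested genes 1.08% were higher and 7.37% lower by 1 or more in RD, and 1.78% and 9.05% in JR1. The 7 had medians of -0.38 in RD and -0.29 in JR1. The adaptor FADD had the lowest change in RD at -0.89 and the adaptor DAXX the lowest in JR1 at -0.86. The initiator CASP8 was at 0.12 in RD and -0.20 in JR1.

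The members that act in arrest and stress did not share a direction. SESN1 (chr6:108984309-109094846), a sestrin that restrains mTORC1 signalling, was at 1.28 TPM in RD shSCR, 1.62 TPM in RD shSKP2, 0.98 TPM in JR1 shSCR and 1.54 TPM in JR1 shSKP2. Both shSKP2 levels were above both shSCR levels, although all 4 were low. SESN1 changed by 0.20 (RD) and 0.36 (JR1), with 0.57 and 0.71 after removal of the short structural RNAs, and the sign held under all 5 alternatives in both lines.

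BTG2 (chr1:203305519-203309602), an antiproliferative protein that recruits the deadenylation machinery, was at 8.58 TPM in RD shSCR, 8.46 TPM in RD shSKP2, 12.4 TPM in JR1 shSCR and 10.9 TPM in JR1 shSKP2. The levels of the hairpins overlapped across the lines, and within RD they were nearly equal. Its changes of -0.02 and -0.17 became 0.36 and 0.10 after removal of the short structural RNAs, and the sign held in 1 of 5 alternatives in each line.

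GADD45A (chr1:67685201-67688334), which acts in growth arrest and stress kinase signalling, was the member that moved in opposite directions between the lines. Its level was 29.2 TPM in RD shSCR, 30.5 TPM in RD shSKP2, 60.1 TPM in JR1 shSCR and 39.9 TPM in JR1 shSKP2. JR1 shSCR stood above the other 3 libraries. GADD45A changed by 0.06 (RD) and -0.58 (JR1), and this gap of -0.64 was not tested, and both signs held under all 5 alternatives.

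GDF15 (chr19:18382170-18389176), a secreted member of the TGF-beta superfamily, was at 9.98 TPM in RD shSCR, 4.49 TPM in RD shSKP2, 29.55 TPM in JR1 shSCR and 26.72 TPM in JR1 shSKP2. The lines differed more than the hairpins did, since both JR1 levels were above both RD levels. In RD the change was -1, which lies exactly on the limit used here for a changed gene, and in JR1 it was -0.14. After removal of the short structural RNAs it was -0.71 in RD and 0.14 in JR1. The direction in RD held under all 5 alternatives and that in JR1 under 1 of 5.

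**Figure D2:**
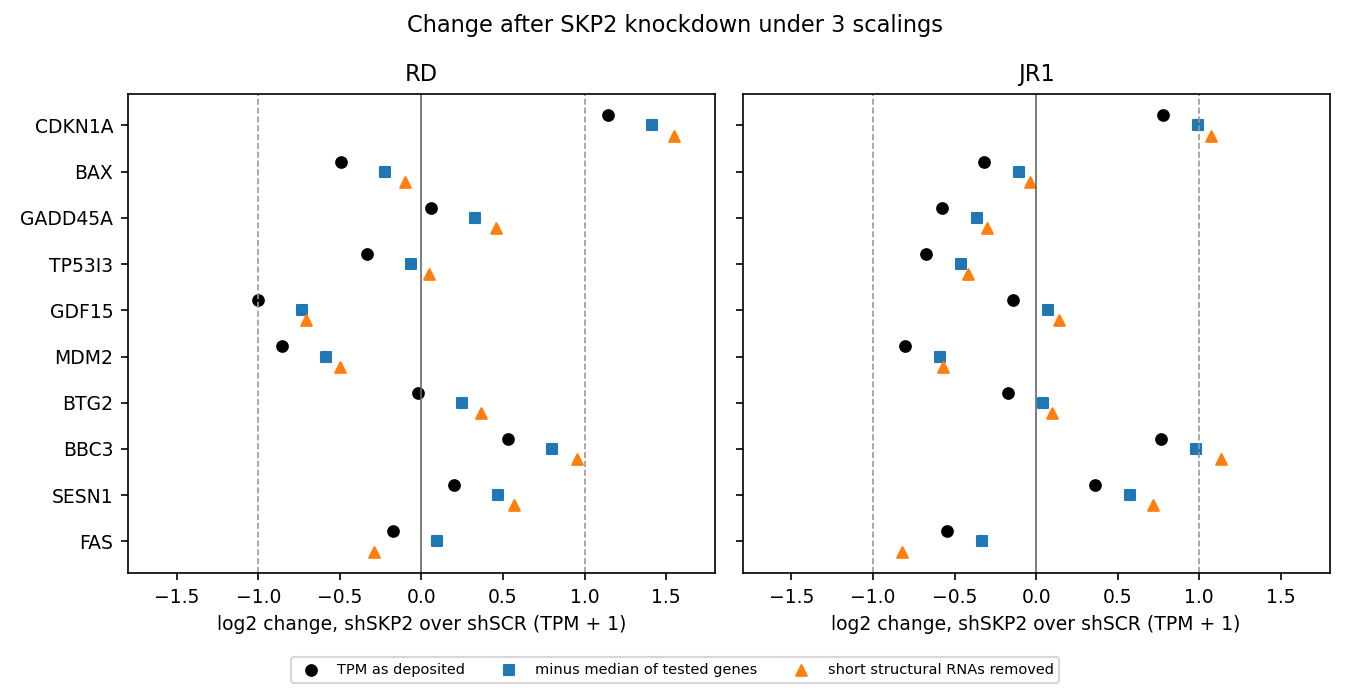
Change of CDKN1A and the 9 targets in RD (left) and JR1 (right) as log2 of shSKP2 over shSCR, with TPM as deposited (circles), after subtraction of the median of all tested genes (squares) and after removal of the short structural RNA genes (triangles). Dashed lines mark 1 and -1. MDM2 lies below 0 and BBC3 and SESN1 above 0 under each scaling in both lines, while BTG2 and, in JR1, GDF15 cross 0.

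Counted at 1 or more on the log2 scale, none of the 8 tested members was higher in either line, beside 1.08% (RD) and 1.78% (JR1) of all tested genes. GDF15 in RD was the single one that was lower, against 7.37% of all genes in RD and 9.05% in JR1. With a limit of 1.5-fold, MDM2 and GDF15 were lower in RD and none was higher, where 23.2% of all genes were lower and 3.2% higher. In JR1 MDM2 and TP53I3 were lower and BBC3 was higher at that limit, where 23.4% of all genes were lower and 5.32% higher. 5 of the 8 lay below 0 in RD and 6 of the 8 in JR1, near the 75% and 68.9% of all genes. The medians of the members, -0.18 in RD and -0.25 in JR1, were likewise close to those of all genes. The counts and medians of the 8 thus lay near those of all genes, and the directions differed between the members.

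In both lines together 5 of the 8 members were lower, 2 were higher and 1 moved in opposite directions, where 61.1% of all tested genes were lower in both, 17% higher in both and 21.3% opposite. The levels of MDM2, BAX and TP53I3, 3 of the 8, were lower in both shSKP2 libraries than in either shSCR library, as were those of 38.8% of all tested genes. The levels of BBC3 and SESN1, 2 of the 8, were higher in both shSKP2 libraries than in either shSCR library, where 9.04% of all genes were. After removal of the short structural RNAs 3 of the 8 members were below 0 in RD and 4 of the 8 in JR1, beside 41% and 47.5% of the genes tested on that scale. At 1 or more on that scale no member was higher or lower in RD, beside 3.25% and 3.53% of the tested genes, and in JR1 BBC3 was higher and none lower, beside 4.3% and 6.83%.

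CDKN1A was also set against each member within the libraries. Its ratio to GDF15 was 4.95-fold higher with shSKP2 than with shSCR in RD and 1.90-fold higher in JR1. Its ratio to BAX was 3.16-fold and 2.17-fold higher, and that to TP53I3 2.84-fold and 2.82-fold. For GADD45A the ratio was 2.13-fold and 2.59-fold higher, and for BTG2 2.26-fold and 1.96-fold. CDKN1A thus gained on these 5 members and on MDM2 in both lines. It gained less on SESN1, by 1.76-fold in RD and 1.10-fold in JR1. Against BBC3 the ratio was 1.42-fold higher in RD and 0.889 of the shSCR ratio in JR1, so that in JR1 BBC3 gained on CDKN1A.

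The lines differed in their starting levels of some members. With shSCR, JR1 was above RD by 1.48 on the log2 scale for GDF15 and by 1.02 for GADD45A, and the other 6 tested members differed by less than 1, where 9.95% of all tested genes differed by 1 or more. With shSKP2 only GDF15 among the 8 differed by 1 or more, at 2.34, where 8.09% of all genes did, and GADD45A differed by 0.38. The difference in GADD45A between the lines was thus smaller with shSKP2, and that in GDF15 larger.

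BAX and BBC3 act through a balance with other BCL2 proteins, and 11 of 14 of these partners were tested. BCL2L11, which encodes the BH3-only protein BIM, was at 14.5 and 26.1 TPM in RD shSCR and shSKP2 and at 14.3 and 33.7 TPM in JR1. Its changes of 0.81 and 1.18 were the highest of the list in each line. PMAIP1, which encodes the BH3-only protein NOXA and is a p53 target as well, was at 92.7 and 20.9 TPM in RD and at 88.6 and 19.5 TPM in JR1. Its changes of -2.10 and -2.13 were the lowest of the list. BID, a further BH3-only gene of the list, changed by -0.92 in RD and -1.28 in JR1. BBC3 and BCL2L11 on the one side and PMAIP1 and BID on the other thus moved apart in both lines. Relative to BCL2L1, the gene for the survival protein BCL-XL, BAX was at 1.00 in RD shSCR and 0.602 in RD shSKP2, and at 0.915 and 0.415 in JR1. BBC3 relative to MCL1, a survival gene, was 3.03-fold higher in RD and 4.67-fold higher in JR1, and BBC3 relative to BCL2L1 was 1.34-fold and 1.11-fold higher. The TPM of BBC3 alone was 1.57-fold higher in RD and 1.94-fold higher in JR1, so that a lower level of MCL1 also entered the ratio to MCL1. The list as a whole had medians of -0.32 in RD and -0.58 in JR1, with 0 genes higher and 1 lower by 1 or more in RD, and 1 higher and 3 lower in JR1. Of all tested genes 1.08% were higher and 7.37% lower in RD, and 1.78% and 9.05% in JR1. Without the short structural RNAs as many of the list were higher as lower, 1 each in RD and 2 each in JR1. On that scale 3.25% of the tested genes were higher and 3.53% lower in RD, and 4.3% and 6.83% in JR1.

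A wider list of 97 p53 targets beside the 9, written from general knowledge and sorted by role, gave 81 tested genes. In RD 3 of the 81, CDKN1A among them, were higher and 9 lower by 1 or more, where 1.08% of all tested genes were higher and 7.37% lower. In JR1 3 were higher and 13 lower, where 1.78% were higher and 9.05% lower. After removal of the short structural RNAs 8 were higher and 7 lower in RD, beside 3.25% and 3.53% of the tested genes. In JR1 7 were higher and 12 lower on that scale, beside 4.3% and 6.83%. Lower genes of the list thus no longer outnumbered higher ones in RD on that scale. With TPM as deposited the medians of the 81 were -0.34 in RD and -0.35 in JR1, and 54 of 81 lay below 0 in RD and 58 of 81 in JR1. These shares were no higher than that of all genes in RD and slightly above it in JR1. 50 were lower and 19 higher in both lines, and 12 moved in opposite directions. 8 genes were lower by 1 or more in both lines and 2, SESN2 and DDIT4, were higher in both, where 4.79% of all tested genes were lower and 0.539% higher in both.

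**Figure D3:**
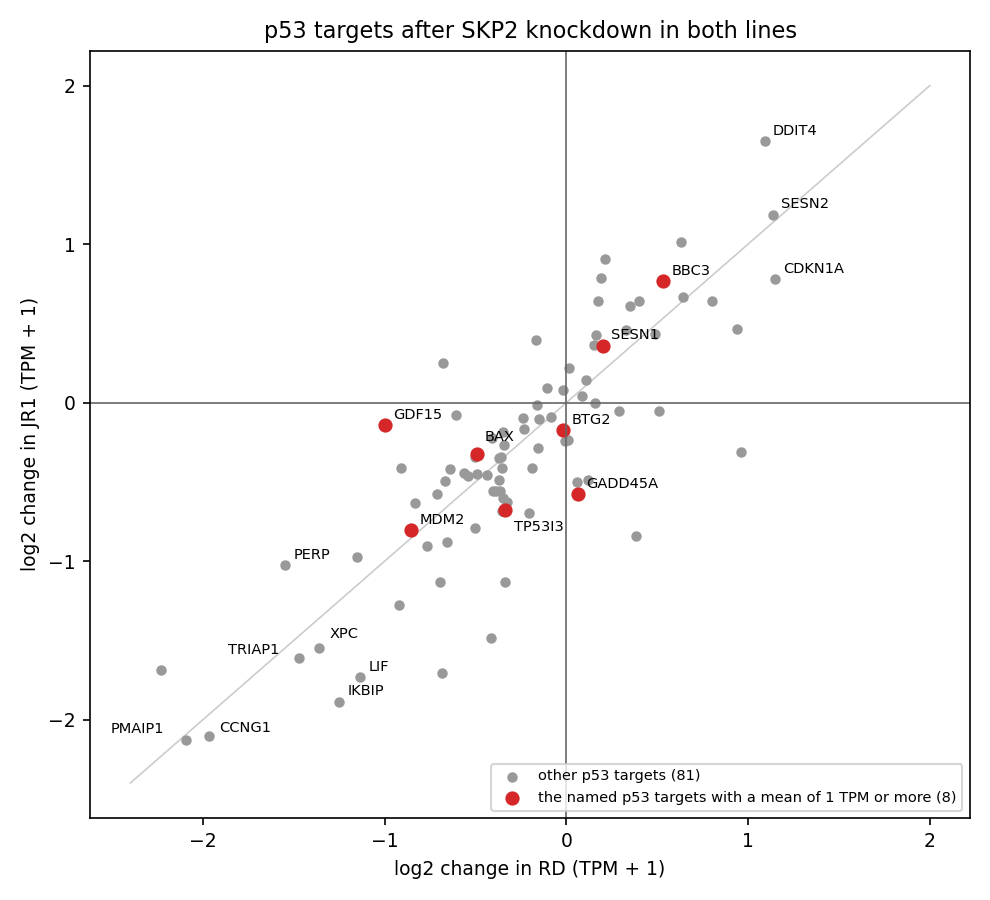
Change in RD (horizontal) against change in JR1 (vertical), both as log2 of shSKP2 over shSCR on TPM + 1, for 8 named p53 targets (red) and 81 other p53 targets (grey), with the line of equal change. MDM2, BAX and TP53I3 lie lower left, BBC3 and SESN1 upper right with SESN2, DDIT4 and CDKN1A, and PMAIP1 and CCNG1 lie lowest in JR1 near -2.1.

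Of the 6 tested cell cycle targets CDKN1A was the highest in each line. CCNG1, which encodes cyclin G1 and is among the classical p53 targets, was the lowest, at 26.2 and 5.94 TPM in RD shSCR and shSKP2 and at 23.9 and 4.80 TPM in JR1, with changes of -1.97 and -2.10. With TPM as deposited 1 of the 6 was higher and 1 lower by 1 or more in RD, and in JR1 0 were higher and 2 lower. After removal of the short structural RNAs 1 was higher and 2 lower in JR1. For the counts by role, 1.08% of all tested genes were higher and 7.37% lower in RD, and 1.78% and 9.05% in JR1. 15 apoptotic targets and death receptors were tested. With TPM as deposited none of them was higher by 1 or more, 3 were lower in RD and 4 in JR1. After removal of the short structural RNAs 1 was higher and 3 lower in each line. On that scale 3.25% of the tested genes were higher and 3.53% lower in RD, and 4.3% and 6.83% in JR1. PMAIP1, PERP and TRIAP1 were lower by 1 or more in both lines with TPM as deposited. PERP, a membrane protein of desmosomes, changed by -1.55 and -1.02, and TRIAP1, an inhibitor of apoptosis that acts in mitochondrial lipid transfer, by -1.47 and -1.61. After the removal PERP in JR1 was at -0.93. The decoy receptor TNFRSF10D was the highest of this list at 0.64 and 0.67, and at 1.09 and 1.16 after the removal. With TPM as deposited 10 of the 15 lay below 0 in RD and 12 of the 15 in JR1, as BAX did. Of all tested genes 75% in RD and 68.9% in JR1 lay below 0. PMAIP1, PERP and TRIAP1 lay well below BAX.

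The 8 targets in DNA repair and nucleotide supply were all tested, and none was higher by 1 or more. XPC, the damage sensor of nucleotide excision repair, was lower in both lines with changes of -1.36 and -1.55, and POLH, a translesion polymerase, was the highest at -0.02 and 0.08. Of 13 tested targets in metabolism, redox and autophagy 2 were higher and 0 lower by 1 or more in RD, and 2 were higher and 1 lower in JR1. SESN2, a paralogue of SESN1, was at 9.04 and 21.04 TPM in RD and at 14.5 and 34.2 TPM in JR1, with changes of 1.13 and 1.19 that exceeded those of SESN1. DDIT4, which restrains mTORC1 as the sestrins do, was at 25.3 and 55.0 TPM in RD and at 31.4 and 101 TPM in JR1, with changes of 1.09 and 1.65. The lowest was FDXR, a mitochondrial reductase, at -0.69 and -1.13.

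Among 11 tested secreted and surface targets, the group to which GDF15 belongs by function, 2 were lower by 1 or more in RD and 4 in JR1, and none was higher. The cytokine gene LIF changed by -1.14 and -1.73. The highest were KITLG in RD at 0.94 and EPHA2 in JR1 at 0.64. Of 28 tested targets with other roles IKBIP was lower in both lines at -1.25 and -1.89, and ARHGEF3 was the highest at 0.63 and 1.01. This list held 0 higher and 2 lower genes by 1 or more in RD, and 1 higher and 1 lower in JR1. With TPM as deposited, the genes that were lower by 1 or more thus outnumbered those that were higher except in metabolism, with an equal count among the cell cycle targets in RD and the other targets in JR1. Lower genes also outnumbered higher ones among all tested genes, at 7.37% against 1.08% in RD and 9.05% against 1.78% in JR1. After removal of the short structural RNAs the secreted and surface targets had 2 higher and 2 lower in RD and the targets with other roles 1 higher and 0 lower in RD and 3 higher and 1 lower in JR1. On that scale 3.25% of the tested genes were higher and 3.53% lower in RD, and 4.3% and 6.83% in JR1.

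Of 22 genes of the p53 family and its regulators 20 were tested, with medians of -0.34 in RD and -0.27 in JR1. None was higher by 1 or more, beside 1.08% of all tested genes in RD and 1.78% in JR1. 2 were lower in RD and 1 in JR1, beside 7.37% and 9.05%. After removal of the short structural RNAs 1 was lower in each line, beside 3.53% and 6.83% of the tested genes. CHEK2, a kinase that phosphorylates p53 after DNA breaks, was at 18.8 and 5.82 TPM in RD shSCR and shSKP2 and at 22.4 and 3.77 TPM in JR1, with changes of -1.54 and -2.30. HIPK2, a kinase of p53, was the highest in RD at 0.22, and PPP1R13B, a cofactor of p53 in apoptosis, the highest in JR1 at 0.25. The p53 relatives TP63 and TP73 did not exceed 0.61 TPM in any library.

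**Figure D4:**
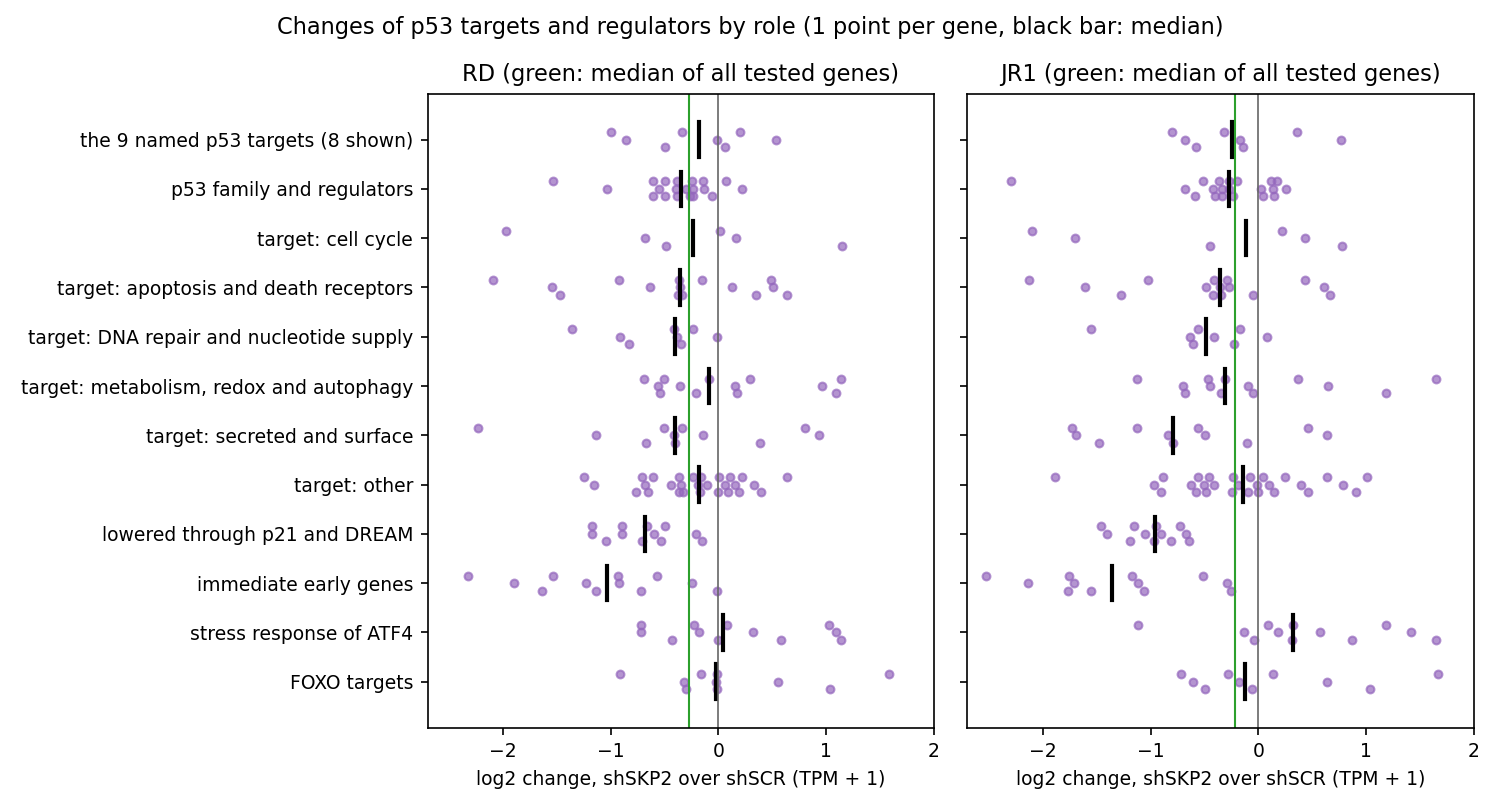
Changes of the tested genes of each list in RD (left) and JR1 (right) as log2 of shSKP2 over shSCR on TPM + 1, with 1 point per gene, a black bar at the median of the list and a green line at the median of all tested genes. The members straddle the green line with medians of -0.18 and -0.25, whereas the immediate early genes lie below it with medians of -1.03 and -1.36.

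Lists of other programmes that also reach some of these targets were read beside them. The 12 immediate early genes had medians of -1.03 (RD) and -1.36 (JR1), and 6 of 12 were lower by 1 or more in RD and 9 of 12 in JR1, where 7.37% and 9.05% of all tested genes were. Without the short structural RNAs 4 and 6 were lower by 1 or more, beside 3.53% and 6.83% of the tested genes. The medians of the 12 were then -0.65 and -1.11. All 12 were below 0 in both lines with TPM as deposited, whereas 2 in RD and 1 in JR1 were above 0 on the other scale. FOSB was the lowest at -2.33 and -2.52, FOS was at -1.90 and -2.14, and JUN was the highest in RD at -0.01 and KLF6 in JR1 at -0.25. Of 12 tested genes of the ATF4 stress response 3 were higher by 1 or more in each line, beside 1.08% of all tested genes in RD and 1.78% in JR1. They were SESN2, DDIT4 and ASNS, of which the first 2 are also in the list of p53 targets. The medians of this list were 0.04 in RD and 0.32 in JR1. Without the short structural RNAs 4 of its genes were higher by 1 or more in each line, beside 3.25% and 4.3% of the tested genes. ASNS, asparagine synthetase, changed by 1.03 and 1.42, while ATF4 itself was at -0.72 and -0.14 and ATF3 at -0.72 and -1.12.

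Of 10 tested FOXO targets FBXO32 and TRIM63, both muscle ubiquitin ligases, were higher by 1 or more in both lines, at 1.58 and 1.67 for FBXO32 and at 1.04 in each line for TRIM63. Among all tested genes 0.539% were higher by 1 or more in both lines. The medians of the FOXO targets were -0.02 and -0.12, with GABARAPL1 the lowest in RD at -0.92 and BCL6 in JR1 at -0.72. The 12 genes that p53 lowers through p21 and the DREAM repressor complex were all below 0 in both lines with TPM as deposited, with medians of -0.69 and -0.96. Without the short structural RNAs the medians were -0.30 and -0.74, and 2 of the 12 were above 0 in RD. CDK1 was the lowest of them at -1.18 and -1.46, MYBL2 was at -1.18 and -1.15 and BUB1 at -1.04 and -1.41, whereas CCNB2 was the highest in RD at -0.15 and CCNA2 in JR1 at -0.64. The 6 tested muscle markers had medians of 0.57 (RD) and 0.59 (JR1). With TPM as deposited ACTC1 in JR1 alone reached 1 or more, at 1.79 beside 0.96 in RD. Of all tested genes 1.08% in RD and 1.78% in JR1 were higher by 1 or more. Without the short structural RNAs 3 of the 6 markers were higher by 1 or more in RD and 2 in JR1, beside 3.25% and 4.3% of the tested genes. ACTC1 was then at 1.36 in RD and 2.08 in JR1. With TPM as deposited MYOD1 was the lowest in RD at 0.11 and DES in JR1 at -0.50. The part of these programmes in the levels of the 9 targets was not tested.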

How the data were processed

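The authors prepared directional libraries from poly-A RNA, sequenced them in paired reads of 150 bases, used STAR 2.7.9a for alignment to GRCh38, and took TPM from RSEM 1.3.2. The deposited TPM were used as the authors gave them, 1 table per library, and samples were grouped by the line and hairpin in the labels. TPM keep no read counts, so that the depth is unknown and no counting interval or floor can be given. Changes were log2 ratios of TPM + 1 within a line. Genes whose TPM averaged at least 1 across all 4 libraries are called tested, 1 or more on the log2 scale counted as changed, and the word tested implies no statistical test, since each group has 1 library. Coordinates are those deposited, and matches to the p53 consensus were read from GRCh38 near RefSeq starts. 635 short structural RNA genes were removed by symbol where stated.

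The members and lists were chosen with earlier results of these data known, and the lists were written from general knowledge. Named are the 9 members, CDKN1A and SKP2, of each other list the highest and lowest gene of each line, each gene changed the same way in both lines, and genes changed in one line that moved the opposite way in the other, and some genes that this rule names are not reported here. The list of paralogues, MYF5, FASLG, TP63, TP73, BID, the overlapping genes and the partners used in ratios were chosen after their values were seen. Alternatives were a pseudocount of 0.1 TPM, centring on the median of all tested genes, removal of short structural RNA genes without or with RMRP, RPPH1 and transfer RNA genes, median-ratio size factors over 4808 genes, all genes above 0 TPM, a minimum average of 5 TPM, and a limit of 1.5-fold. The calls of higher genes were tried on simulated shSKP2 values with planted rises, after centring on the median gene. No shift in the short structural RNAs was simulated, so that the trial does not bear on the calls from uncentred TPM. The scan for the p53 consensus was tried on random sequence with a planted site. The tools were numpy 2.4.6, pandas 2.3.3 and matplotlib 3.10.9 under Python 3.11.15.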

Additional observations from a re-analysis of the deposited data

Results flagged for a closer look

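GADD45A was singled out because its changes had opposite signs in the lines with TPM as deposited, after centring on the median gene and after removal of the short structural RNAs. The change in JR1 minus the change in RD was -0.64, and this difference was not tested, since each line has 1 library per hairpin. Among the muscle markers the same was seen for DES, the gene for desmin, at 39.3 and 43.4 TPM in RD shSCR and shSKP2 and at 51.3 and 36.0 TPM in JR1, with a difference of -0.64 that was not tested either.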

How the results depend on the processing

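The count of changed members in RD, 1 as reported, was 0 after centring on the median of all genes, after either removal of small RNA genes and with median-ratio size factors, and 2 with a limit of 1.5-fold. In JR1, 0 as reported, it was 1 after either removal and 3 with 1.5-fold. The median of the members in RD, -0.18 as reported, was 0.093 after centring, 0.21 after removal of short structural RNAs, 0.22 after the transfer RNA genes, RMRP and RPPH1 were taken out too, 0.083 with size factors and -0.42 with a mean of at least 5 TPM. In JR1, -0.25 as reported, it was -0.034, 0.028, 0.0040, -0.061 and -0.45 in the same order. The median of the wider list with the members in RD, -0.34 as reported, was -0.066 after centring, 0.021 and 0.039 after the removals, -0.071 with size factors and -0.21 over all genes above 0 TPM. In JR1, -0.34 as reported, it was -0.13, -0.13, -0.15 and -0.16 after centring, the removals and with size factors. The stricter filter leaves 6 members, and the cause of the other moves was not tested. A result was taken as kept where it moved by less than 0.1 on the log2 scale. Of the values of single genes 157 were kept and 243 moved. The 157 include the filters of all genes above 0 TPM and of a mean of at least 5 TPM. Those filters leave the value of a gene unchanged by construction, so that this part of the 157 says nothing about how stable the values are. The labels give no replicate numbers, and a fit with the lines as a pair of blocks, which leaves 1 residual degree of freedom per gene, was not run. With neither replicates nor read counts, no size of difference can be placed above noise, and this holds most for FAS and SESN1.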

Other observations

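With TPM as deposited some paralogues of the members moved with them and others did not. MDM4, a relative of MDM2, was at 13.4 and 8.44 TPM in RD shSCR and shSKP2 and at 6.97 and 4.30 TPM in JR1, with changes of -0.61 and -0.59. BOK, a relative of BAX, changed by -0.43 and -0.60. Both were thus lower as MDM2 and BAX were, where 61.1% of all tested genes were lower in both lines. After removal of the short structural RNAs MDM4 was at -0.25 and -0.38 and BAX at -0.10 and -0.04. Of the 10 tested paralogues 1 was higher and 1 lower by 1 or more in both lines, beside 0.539% and 4.79% of all tested genes. BTG3, a relative of BTG2, was at 12.5 and 5.60 TPM in RD shSCR and shSKP2 and at 12.4 and 4.30 TPM in JR1, with changes of -1.04 and -1.34. GADD45G, a relative of GADD45A, was at 5.79 and 5.51 TPM in RD and at 2.90 and 7.59 TPM in JR1, with changes of -0.06 and 1.14, so that in JR1 it moved the opposite way from GADD45A, which changed by -0.58. SESN2 and SESN1 were both higher with shSKP2 in each line, where 17% of all tested genes were higher in both. The paralogues were chosen after the values had been seen.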
